A study of Rattus norvegicus with 48 samples.

Results

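A set of 213 genes was defined in rat liver by near silence in control animals and by reads in diseased animals. A gene belonged to the set when its mean CPM (reads of the gene per 1000000 reads on all genes of that animal) was under 0.2 in each of the 3 control groups and at least 1 in the diseased animals of week 12. Both thresholds were met by 214 of the 32662 genes in the count table, of which 20859 had at least 1 read, and the rule leaves out 1 of the 214. The control values and the week 12 values therefore chose the genes, and both are given below as descriptions. Where a count past a test's threshold is printed for a comparison that used these values, nothing is read from it. The diseased animals of weeks 4 and 8 took no part in the choice.

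The livers came from 48 male Wistar rats, 6 weeks old on arrival, with 8 animals for each diet and each of weeks 4, 8 and 12. Diseased animals received an L-amino acid-defined feed lacking choline and holding 1% cholesterol (CDAA, spelled CDDA in the sample labels), with 31% of its energy from fat, 11% from protein and 58% from carbohydrate and with 0.17% methionine. Control animals received the choline-supplemented counterpart (CSAA), for which no added cholesterol is stated. It had 16%, 12% and 72% of its energy from fat, protein and carbohydrate and 0.4% methionine. Choline, methionine, stated cholesterol, fat, protein and carbohydrate thus differed together between the diets and cannot be told apart. No strain, transgene or drug differed between the groups, and each library came from the whole liver tissue of 1 animal.

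Choline is needed to make phosphatidylcholine, the phospholipid with which hepatocytes export fat, so rodents lacking it accumulate fat in the liver. With longer feeding, inflammation and scarring follow, which is why the diet serves as a model of non-alcoholic steatohepatitis (NASH). Hepatocytes supply most of the RNA of a liver, and a transcript made mainly by scarce cells reaches a bulk library as only a few reads. In bulk tissue, a different number of cells of a type and a different amount of RNA per cell cannot be told apart.

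The count table lists Ensembl gene identifiers without names, so the functions of the 213 genes, the tissue markers and the sequences were not analysed here. A pair of identifiers is printed below. The reads on genes numbered 13619274 to 22284359 in an animal (median 18614479), so that at the median depth 0.2 CPM stood for 3.72 reads and 1 CPM for 18.6 reads. CPM set levels relative to the total of an animal, and the TMM factors, which rescale that total in the tests below, averaged 0.777 to 0.848 in the CSAA groups and 1.07, 1.29 and 1.37 on CDAA at weeks 4, 8 and 12. With TMM factors in the CPM, 100 genes met both thresholds. Animals 504 and 908 on CSAA and animal 303 on CDAA stood apart from their groups, and several results that rest on them are given with and without them.

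The genes were not absent on CSAA. Just 1 of the 213 had 0 reads in all 24 CSAA animals, which allows a level of up to 0.00697 CPM over their 430490911 reads, for counting error only. Each gene had a read in a median of 15 of the 24 CSAA animals, 158 genes had one in at least 12 of them, and 3 genes had one in all 24. Summed over the 24 animals, a gene had between 0 and 84 reads on CSAA (median 40), and the highest count in a single animal was 18. The set is therefore described as near-silent on CSAA. The median of the group means over the 213 genes was 0.0639, 0.109 and 0.0988 CPM on CSAA at weeks 4, 8 and 12. Without animals 504 and 908 it was 0.0746 CPM at week 8 and 0.0682 CPM at week 12.

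Animals 504 (week 8) and 908 (week 12) carried much of this control signal. These libraries held 27.0% of the 8617 CSAA reads on the set but 7.66% of all CSAA reads on genes. Animal 504 was the highest of its group in 155 of the 213 genes (72.8%, against 35.8% of all genes with a read), and animal 908 in 149 (69.95%, against 22.5%). Of these, 114 genes were highest in both, which is 73.5% of the first list and 76.5% of the second. Over the whole set, 69.95% were highest in animal 908 and 72.8% in animal 504. The shares are near these, so nothing is read from the overlap of the lists. A read was seen for 208 of the 213 genes in animal 504 and for 207 in animal 908, while the other CSAA animals had a read for 80 to 164 genes. Still, just 3 genes reached 1 CPM in animal 504 and 1 gene in animal 908.

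On CDAA the summed level of the set was higher at each later week, where the week 12 values chose the genes. The summed CPM of the 213 genes was 15.1 ± 1.66 (SD, n = 8) on CSAA and 91.3 ± 28.6 on CDAA at week 4, 24.4 ± 22.2 and 182 ± 40.6 at week 8, and 21.4 ± 17.1 and 396 ± 123 at week 12. Without animals 504 and 908 the CSAA sums were 16.7 ± 4.50 at week 8 and 15.4 ± 2.31 at week 12 (SD, n = 7), and without animal 303 the CDAA sum at week 4 was 101 ± 10.3. With all animals and without TMM factors, the mean sum on CDAA was 2.00-fold higher at week 8 than at week 4. It was 2.17-fold higher at week 12 than at week 8. The low sum of animal 303 raised the first ratio. Scaling by the TMM factors, whose means rose from week to week on CDAA, would lower both ratios.

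At week 4 on CDAA, animals 301 to 308 had sums of 101, 102, 24.5, 89.5, 98.4, 115.5, 112 and 87.9 CPM. At week 8, animals 701 to 708 had sums of 141, 170, 208, 124.5, 156, 203, 215 and 242 CPM. Every animal of week 8 lay above every animal of week 4. At week 12, animals 1101 to 1108 had sums of 509.7, 187, 269, 324, 505, 514, 436 and 421 CPM. Animal 1102 lay within the range of week 8, and the other week 12 animals lay above it. On CSAA the sums ran from 11.5 to 26.1 CPM in 22 animals, and reached 78.4 CPM in animal 504 and 63.2 CPM in animal 908. Animal 303 was thus within the range of the control animals, while the other CDAA animals were above all control animals.

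**Figure D1:**
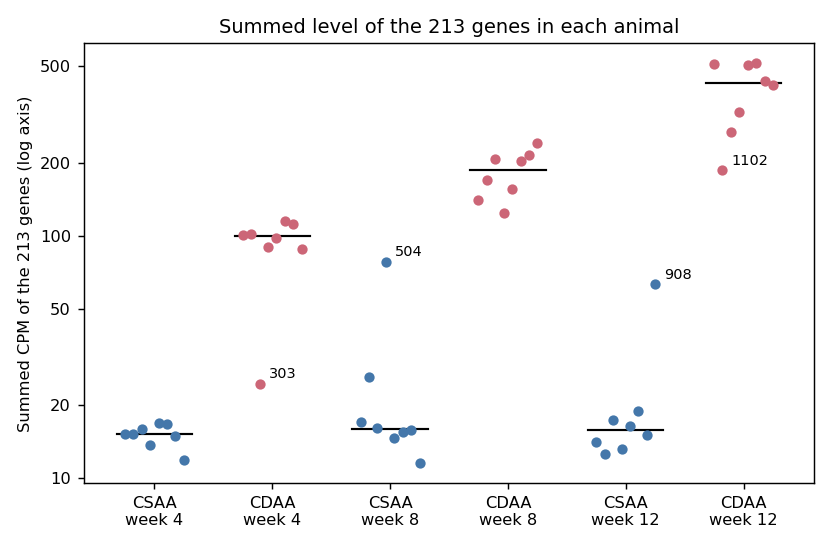
Summed CPM of the 213 genes (y axis, log scale) in each of the 48 animals, by diet and week. Points are animals, blue for CSAA and red for CDAA, and black lines are group medians. CSAA animals sit near 15 CPM apart from animals 504 and 908, CDAA animals rise from about 100 CPM at week 4 to a median of 428 CPM at week 12, and animals 303 and 1102 sit below their groups.

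Gene by gene the means were mostly higher at each later week, where the week 12 means chose the genes. The median of the group means on CDAA was 0.352, 0.769 and 1.51 CPM at weeks 4, 8 and 12, and with TMM factors 0.324, 0.594 and 1.09 CPM. Without animal 303 the week 4 median was 0.385 CPM before TMM scaling. The week 8 mean was above the week 4 mean in 201 of 213 genes (190 without animal 303, 187 with TMM factors). In 204 genes (200 with TMM factors) the week 12 mean, which was used to choose the genes, was above the week 8 mean. The share of all genes that rose was not counted, so both counts are descriptions. A mean of at least 1 CPM was reached by 13 genes at week 4 (21 without animal 303) and by 65 at week 8, and 145 genes were under 1 CPM at both weeks. The week 4 mean was a median of 20.7% of the week 12 mean (quartiles 12.4% and 33.7%), and the week 8 mean a median of 44.2% (quartiles 33.9% and 62.9%).

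The extremes of this course differed. The gene with the highest week 4 mean had 1.33 CPM at week 4, 0.985 CPM at week 8 and 1.28 CPM at week 12 on CDAA, so it was near its final level from the first week measured. The week 4 mean exceeded the week 12 mean in 4 genes, and the week 8 mean exceeded it in 9. At the other end, 4 genes had a week 8 mean under 10% of their week 12 mean. One of these, with the lowest week 4 mean of the set, had 0.0148 CPM at week 4, 0.0160 CPM at week 8 and 1.17 CPM at week 12.

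**Figure D2:**
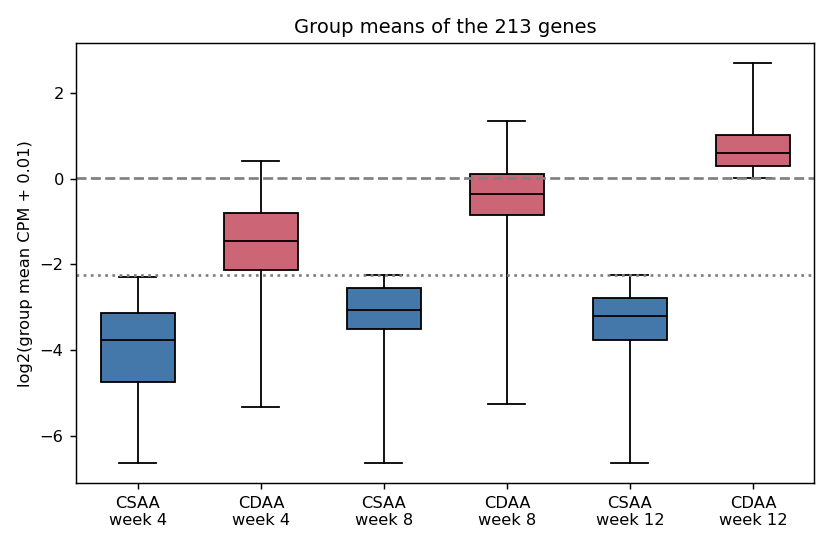
Group means of the 213 genes on a log2(CPM + 0.01) scale (y axis) by diet and week. Boxes span the quartiles with the median, whiskers the lowest and highest gene, and the dotted and dashed lines mark 0.2 and 1 CPM, the limits used to choose the genes. On CDAA the median rises from 0.352 CPM at week 4 to 0.769 CPM at week 8 and 1.51 CPM at week 12.

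The change on CDAA from week 4 to week 8 compares 16 animals that the choice of genes did not use. Except for the fit of these 16 alone, the fits took their spread and scaling from all animals, including those that chose the genes. With edgeR's quasi-likelihood test (Benjamini-Hochberg adjusted p under 0.01 and log2 fold change of at least 1), 56 of the 213 genes (26.3%) were higher at week 8 and 0 were lower, where 3.17% of all 12756 genes tested were higher and 1.84% lower. Of the 213 genes, 23 did not pass the filter on low counts (1 CPM in at least 5 animals of a group) and were not tested, and 141 of the 190 that passed did so through the week 12 animals that chose them. The count of 56 and the median log2 fold change of 0.80 over these 190, beside −0.04 over all genes tested, are therefore descriptions. Without any filter, so that all 213 genes were tested, 47 (22.1%) were higher and 0 lower, where 2.55% of all 20859 genes with a read were higher, a background that includes genes with very few reads. With the filter applied to the 16 animals alone, 49 of the 213 passed and 20 of these were higher, where 3.54% of the genes tested were higher, and a gene could pass that filter by being high at week 8. With the filter over all animals, limma-voom found 52 higher and 0 lower, beside 3.58% and 1.44% of all genes tested. DESeq2 found 60 and 0, beside 3.68% and 1.55%. By each of these tests, 1 gene of the set was lower at an unadjusted p under 0.05. Without animal 708 edgeR's count was 39, without animal 303 it was 43, and without animals 303, 504 and 908 it was 59. The shares of all genes were not counted for these fits, so their counts are descriptions.

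The 56 genes that rose had log2 fold changes of 1.03 to 4.12. Their mean was 0.249 CPM at week 4 and 1.00 CPM at week 8 in the median gene, with ranges of 0.0229 to 0.931 CPM and 0.272 to 2.52 CPM. At week 12, whose values chose the genes, their means ran from 1.02 to 6.44 CPM. These were above the week 8 mean in 54 of the 56, beside 204 of all 213 genes, and nothing is read from this count. The 8 genes with the largest changes had log2 fold changes of 2.54 to 4.12 and started from 0.0229 to 0.161 CPM. In 3 of these 8 every week 8 animal lay above every week 4 animal. Over all 213 genes the weeks did not overlap in 15 (7.04%), beside 9.57% of all genes with a read. The set is at low levels while the table holds genes of every level, so nothing is read from these shares.

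**Figure D3:**
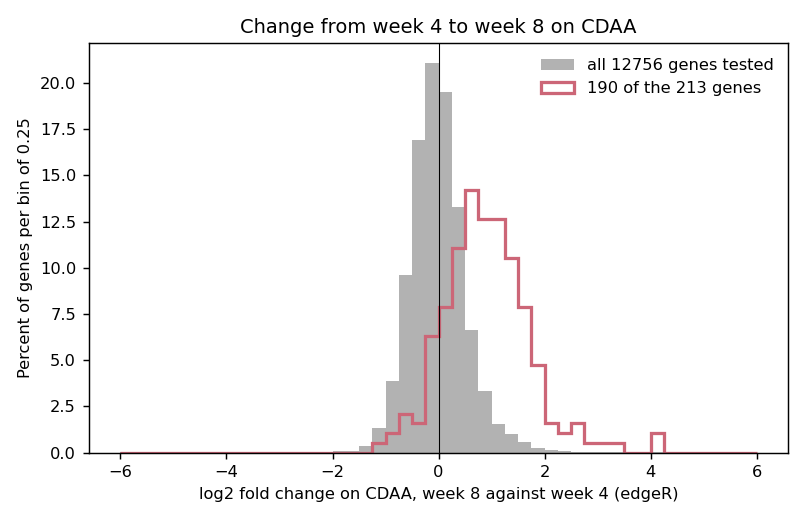
Distribution of the log2 fold change on CDAA from week 4 to week 8 (x axis, edgeR) as percent of genes per bin of 0.25 (y axis). Grey bars are all 12756 genes tested and the red line the 190 genes of the set that passed the filter, mostly through week 12. The median is 0.80 in the set and −0.04 over all genes, and few genes of the set lie below 0.

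ENSRNOG00000047300 had the highest mean CPM of the set on CDAA at week 12. It and the gene described next were chosen for printing after their values were seen. On CSAA its mean was 0.0881, 0.0969 and 0.193 CPM at weeks 4, 8 and 12 (n = 8), with 0 to 5 reads per animal at weeks 4 and 8 and 18 reads, 1.05 CPM, in animal 908. On CDAA at week 4, animals 301 to 308 had 0.468, 0.473, 0.183, 0.230, 0.415, 1.26, 0.135 and 0.115 CPM. At week 8, animals 701 to 708 had 0.599, 1.09, 1.78, 0.262, 0.890, 2.28, 1.86 and 4.03 CPM. Animals 701, 702, 704 and 705 lay below animal 306 of week 4, so the weeks overlapped.

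At week 12, animals 1101 to 1108 had 8.44, 1.81, 4.04, 2.78, 9.29, 8.79, 8.21 and 8.12 CPM of ENSRNOG00000047300. Animals 1102, 1103 and 1104 were low and the other 5 lay between 8.12 and 9.29 CPM. The group means on CDAA were 0.410 ± 0.374, 1.60 ± 1.197 and 6.44 ± 3.03 CPM (SD, n = 8) at weeks 4, 8 and 12. The change from week 4 to week 8 was a log2 fold change of 1.68 ± 0.48 (SE, edgeR adjusted p = 0.00356). With limma-voom it was 1.64 (adjusted p = 0.0184) and without animal 708 1.32 (adjusted p = 0.0221), both short of the threshold, and over all 24 alternatives the adjusted p ran from 0.000546 to 0.0221.

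ENSRNOG00000006367 had the largest log2 fold change of the set from week 4 to week 8. On CSAA its mean was 0.0123, 0.0394 and 0.0353 CPM at weeks 4, 8 and 12 (n = 8), and no CSAA animal had more than 5 reads. On CDAA at week 4, animals 301 to 308 had 1, 0, 0, 2, 0, 3, 1 and 2 reads, or 0.0583 ± 0.0591 CPM (SD, n = 8). At week 8, animals 701 to 708 had 0, 0.679, 1.19, 0, 0.840, 0.691, 5.91 and 1.36 CPM. Animal 707 was far above the others, and animals 701 and 704 had 0 reads, so the weeks overlapped.

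At week 12, animals 1101 to 1108 had 1.43, 1.55, 0.857, 1.60, 3.20, 3.17, 3.02 and 1.78 CPM of ENSRNOG00000006367. Every week 12 animal was above every CSAA animal, by values that were used to choose the gene. Animal 707 of week 8 was above every week 12 animal. The means on CDAA were 1.33 ± 1.91 CPM at week 8 and 2.08 ± 0.912 CPM at week 12 (SD, n = 8). The log2 fold change from week 4 to week 8 was 4.12 ± 0.72 (SE, edgeR adjusted p = 6.95e-06). The gene passed the filter only through the week 12 animals that chose it and was not tested in the fit of the 16 animals alone. Without any filter, the log2 fold change was also 4.12 (edgeR adjusted p = 8.27e-06). Without animal 707 it was 3.17, and over the 23 alternatives that tested it it ran from 2.82 to 4.44 with adjusted p from 9.52e-07 to 0.00527. It passed the thresholds with and without animal 707. The gene was picked as the largest change among those already past them, so nothing is read from its passing or its adjusted p.

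**Figure D4:**
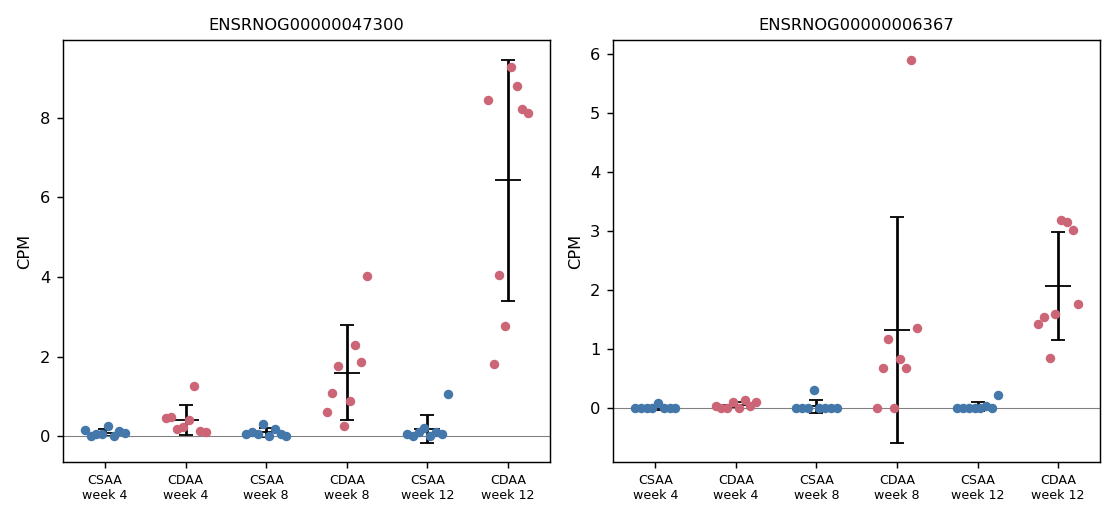
CPM (y axis) of ENSRNOG00000047300 (left) and ENSRNOG00000006367 (right) in each animal, by diet and week. Points are animals, blue for CSAA and red for CDAA, and bars give the mean ± SD of 8 animals. At week 12 ENSRNOG00000047300 is at 8.12 CPM or more in 5 animals and lower in 3, and at week 8 a single animal at 5.91 CPM stands above the others for ENSRNOG00000006367.

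Against CSAA, both the counts past the thresholds and the separation of the animals are descriptions at every week, since the CSAA animals chose the genes for low values and the week 12 animals for high ones. By edgeR, 115 of the 213 genes were higher on CDAA at week 4, 166 at week 8 and 190, all that were tested, at week 12, beside 15.7%, 18.1% and 19.4% of all genes tested. Nothing is read from these counts.

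Every CDAA animal was above every CSAA animal in 25 of the 213 genes at week 4, beside 8.79% of all genes with a read, in 88 at week 8, beside 29.1%, and in 194 at week 12, beside 35.8%. These shares are likewise not compared. The counts moved with single animals. Without animal 303 it was 87 genes at week 4, beside 23.8% of all genes with a read. Without animal 504 it was 152 genes at week 8, beside 33.5%, and without animal 908 207 genes at week 12, beside 37.3%. The shares of all genes thus moved as well. Animal 303 was the lowest of its group in 135 of the 213 genes (63.4%), and in 39.99% of all genes with a read.

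**Figure D5:**
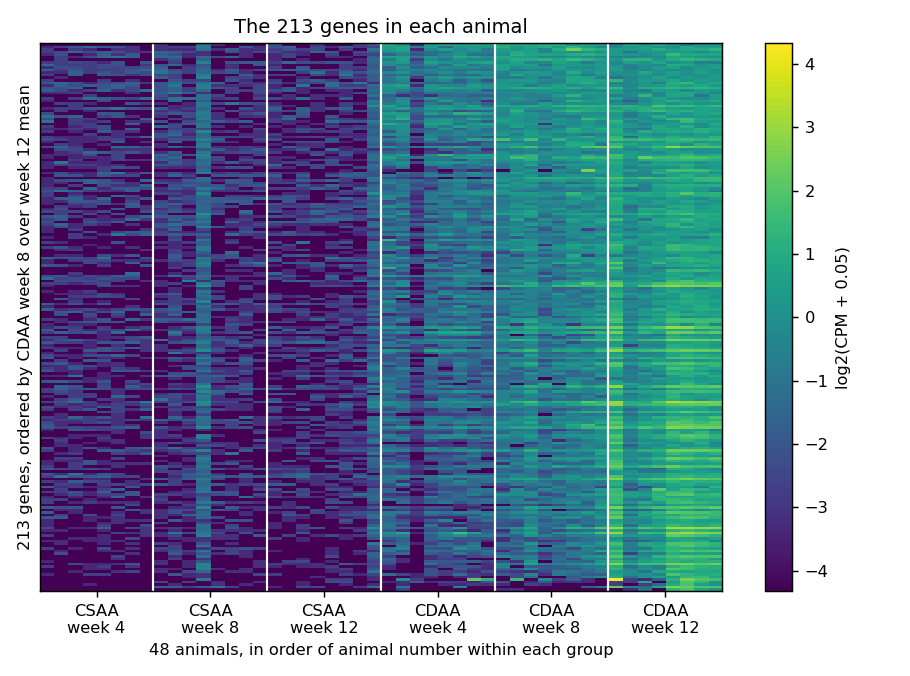
Level of the 213 genes (rows, ordered by the CDAA week 8 mean over the week 12 mean) in each of 48 animals (columns, by group and animal number), as log2(CPM + 0.05). Dark columns fill the CSAA groups apart from animals 504 and 908, the dark column at CDAA week 4 is animal 303, and the lowest rows are genes whose CDAA week 8 mean was the smallest part of their week 12 mean.

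At week 12 on CDAA the genes remained at low levels. Their means ran from 1.00 to 6.44 CPM (quartiles 1.23 and 2.03), with 56 genes at 2 CPM or more, 24 at 3 or more, 12 at 4 or more and 4 at 5 or more. The 12 highest genes held 14.8% of the summed CPM of the set. Per animal and gene there were 0 to 377 reads, with a median of 29. Per length, on the scale of RPKM (CPM per kilobase of gene), the week 12 means ran from 0.129 to 7.54 with a median of 0.639. ENSRNOG00000047300 had 1.63 RPKM and ENSRNOG00000006367 0.605 RPKM. Of the 20 genes highest by CPM, 9 were also among the 20 highest by RPKM, so the order of levels depends on gene length.

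The length that the ratio of CPM to RPKM implies was a median of 2691 bases for the 213 genes (quartiles 1623 and 3978, range 305 to 9770), beside 2229 bases (quartiles 1468 and 3415) for the 13535 genes with such a value. Length was not used to choose the genes, but a long gene reaches 1 CPM at a lower level per length, and this was not tested further. In 37 of the 213 genes the ratio varied by over 5% between animals.

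The 8 CDAA animals of week 12 did not carry the genes evenly. The coefficient of variation (SD over mean) of a gene over these animals had a median of 39.3% (quartiles 32.1% and 46.1%), and 32.1% without animal 1102. Animal 1102 was the lowest of the 8 in 134 genes (62.9%, against 25.5% of all genes with a read) and had 69 genes at 1 CPM or more, where the other animals had 113 to 202. Yet 212 of the 213 genes had a read in animal 1102, and 205 genes were at 0.2 CPM or more in all 8 animals. In 41 genes all 8 animals were at 1 CPM or more. The steadiest gene, with a coefficient of variation of 11.0%, ran from 2.41 to 3.24 CPM with a median of 2.67.

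A coefficient of variation over 100% was found in 3 genes, and these were read in some week 12 animals and nearly missing from others. The most variable had 20.02 CPM in animal 1101, 0.103, 0.0476 and 0.247 CPM in animals 1102, 1103 and 1104, and 2.25, 5.98, 3.96 and 3.35 CPM in animals 1105 to 1108. It also reached 4.58 CPM in a week 4 animal and 2.85 CPM in a week 8 animal on CDAA. The next had 0, 0.0517, 0.428 and 0 CPM in animals 1101 to 1104 and 2.45, 3.63, 1.70 and 1.07 CPM in animals 1105 to 1108. This was the gene with 0 reads on CSAA, and no CDAA animal of weeks 4 and 8 was above 0.118 CPM. The last had 0.106, 0, 0.0952 and 0.370 CPM in animals 1101 to 1104 and 1.90, 3.52, 1.51 and 1.02 CPM in animals 1105 to 1108, with 0.108 CPM at most at weeks 4 and 8. For both of these genes animals 1101 to 1104 were all below animals 1105 to 1108. Both were picked for their variation over these same animals, and how many genes split this way was not counted. The most variable gene did not, since animal 1101 was its highest. The labels give no batch or cage that would separate these animals. The paper describes pairwise housing and pooled libraries, but the labels do not say which animals shared a cage or pool.

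Membership near the thresholds turned on small amounts. The 3 genes just inside the week 12 limit had means of 1.004, 1.006 and 1.007 CPM, and the 3 just outside 0.999, 0.996 and 0.993 CPM. The highest CSAA group mean of the 3 genes just inside the control limit was 0.1995, 0.1994 and 0.1984 CPM, and that of the 3 just outside was 0.2001, 0.2002 and 0.2002 CPM. A week 12 mean under 1.1 CPM was found in 32 of the 213 genes, and 28 genes fell under 1 CPM when 1 of the 8 week 12 animals was left out. The count of genes that met both limits at earlier weeks was 16 with the CDAA mean taken at week 4 and 79 at week 8, beside 214 at week 12. The mirrored rule, under 0.2 CPM in every CDAA group and at least 1 CPM on CSAA, was met by 3, 1 and 1 genes at weeks 4, 8 and 12, and by 4 at week 12 with TMM factors. Genes with a read that lay under 0.2 CPM in all groups of 1 diet numbered 7339 for CSAA and 6110 for CDAA.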

How the data were processed

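Liver RNA of 48 rats was analysed, with group and week taken from the sample labels and each column assigned by its animal number. The authors aligned single-end reads of a stranded mRNA kit to Rnor_6.0 (Ensembl 84) with STAR, counted them per gene with featureCounts and deposited raw counts. The strand setting of the counting is not given in the sources used here. The RPKM values were made by the authors from these reads and deposited with 3 decimals, and served here only for levels per length. FastQC 0.11.2 is listed in the submitters' processing notes. Where strand was not used, overlapping genes cannot be told apart.

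CPM was the count over the total on genes. The test was edgeR 4.0.16 under R 4.3.3 (TMM, quasi-likelihood, 1 coefficient per diet and week, all 48 animals), run on 12756 genes that reached 1 CPM in 5 or more animals of a group. A call needed an adjusted p (Benjamini-Hochberg) under 0.01 together with a log2 fold change of 1 or more in size. SE was the fold change over the root of F. Alternatives were the study's own method, limma-voom (limma 3.58.1), DESeq2 1.42.0 with independent filtering off, other scalings, no filter, other thresholds and leaving out animals. A fit of the 16 CDAA animals of weeks 4 and 8 was added after the data were seen. The scripts were tested on simulated data.

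The genes of the set, the tests and the lists were chosen with earlier results of these data known. The rule for genes to describe took the 12 highest at week 12, the 8 largest changes in each direction from week 4 to week 8, the 5 highest and 5 lowest at week 4, the genes beside each threshold, the 3 steadiest and 3 most variable at week 12, and members of marker and pathway lists. The lists could not be used, since the tables give identifiers without names, and by the rule genes without a name are counted and not named. The 2 identifiers printed are an exception chosen after their values were seen. Labels name separate animals, and cage and batch are not in the labels.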

Additional observations from a re-analysis of the deposited data

Results flagged for a closer look

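Values far from the other 7 animals of a group were looked for in 24 groups of 8 animals with Dixon's test, which chance exceeds in about 1 of 20 groups of normally distributed values. There were 10 such values, several from the same animals. That rate does not hold for counts near 0, where a single animal with reads among animals at 0 is always marked, nor for genes picked after their values were seen. The summed CPM of the 213 genes was far above the group in animal 504 (78.4 CPM, CSAA week 8) and in animal 908 (63.2 CPM, CSAA week 12), and far below it in animal 303 (24.5 CPM, CDAA week 4). Animal 303 also had fewer of the 213 genes with a read (154) than its group.

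ENSRNOG00000006367 was far above the group in animal 707 (5.91 CPM, CDAA week 8), and, at levels of a few reads, in animals 105 (0.0987 CPM), 504 (0.315 CPM) and 908 (0.233 CPM) on CSAA, where the other 7 animals of weeks 4 and 8 were all at 0. ENSRNOG00000047300 was far above the group in animal 908 (1.05 CPM, CSAA week 12) and animal 306 (1.26 CPM, CDAA week 4).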

How the results depend on the processing

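The number of genes in the set followed its limits. It was 100 with TMM factors in the CPM, 61 and 703 with CSAA limits of 0.1 and 0.5 CPM, and 56 with a CDAA limit of 2 CPM, while medians in place of means gave 317, leaving out animals 504 and 908 gave 284, and leaving out 1 animal gave 193 to 248. The count higher at week 8 than at week 4 on CDAA was 20 in place of 56 in the 16 CDAA animals alone, a fit chosen after seeing the data in which fewer genes were tested, and it was within 1.5 times of 56 in the other 23 alternatives (47 to 83 without leave-one-out). Genes lower at week 8 numbered 1 at an adjusted p under 0.05 with no fold change threshold and 0 in the other 23. Leaving out 1 animal gave 39 (without animal 708) to 58 higher from week 4 to week 8, 0 lower, and against CSAA 105 to 125 at week 4, 146 to 176 at week 8 and 145 to 190 at week 12, where every gene of the set that passed the filter was called in all 16 fits and the lower counts are genes that left the filter (145 of 145 tested without animal 1105). For the fits that left out animals the shares of all genes were not counted, so their counts are descriptions. No paired analysis was possible because the animals' numbers are not shared between groups. Depth limits these genes, since 0.2 CPM is 3.72 reads at the median depth.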
